A study of Mus musculus with 12 samples.

Results

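A set of 9 microRNAs that are often used to normalise plasma assays were followed across 12 small RNA libraries, to see how constant each one was. They were taken by name from the deposited count table, as 9 of its 1915 mouse microRNA names: mmu-miR-103-3p, mmu-miR-107-3p, mmu-miR-191-5p, mmu-miR-423-5p, mmu-miR-423-3p, mmu-miR-425-5p, mmu-miR-186-5p, mmu-miR-361-5p and mmu-miR-361-3p (the prefix for mouse is left off below). The libraries came from extracellular vesicles, the membrane particles that cells shed, precipitated from plasma. The mice were male and of the inbred strain C57BL/6J. Of the libraries, 6 followed bile duct ligation (BDL), in which the common bile duct is tied so that bile backs up and injures the liver, and the other 6 followed a sham operation, all sampled at 8 days after surgery. The labels give no age, genetic alteration or drug for either group, and they name liver as the tissue while naming vesicles as the site. They do not say that each library is a separate animal, so p-values measure the spread between libraries. In vesicle RNA, fewer vesicles from a source and less of a microRNA per vesicle cannot be told apart.

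A microRNA guides a silencing complex to messenger RNAs, mainly by pairing through its seed, bases 2 to 8 from the 5′ end. Plasma has no accepted housekeeping RNA, so an assay usually divides a target microRNA by another one that is presumed constant. Any change in the divisor then enters the result with the opposite sign.

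All 9 names matched a mature sequence in RefSeq (GRCm38.p6), and they are shown because sequence decides which of them a read can be told apart by. Capitals mark the seed.
miR-103-3p: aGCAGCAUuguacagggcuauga
miR-107-3p: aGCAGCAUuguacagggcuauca
miR-191-5p: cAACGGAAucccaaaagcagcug
miR-425-5p: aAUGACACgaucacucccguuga
miR-423-5p: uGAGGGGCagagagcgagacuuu
miR-423-3p: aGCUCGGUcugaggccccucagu
miR-186-5p: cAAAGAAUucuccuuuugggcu
miR-361-5p: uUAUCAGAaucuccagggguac
miR-361-3p: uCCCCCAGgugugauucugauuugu

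The 9 sequences carry 8 different seeds, and miR-103-3p and miR-107-3p share one. These paralogues differ by G22C, counted from 1 at the 5′ end with the base of miR-103-3p first. No other mature mouse sequence in that table came within 2 mismatches of any of the 9 over an overlap of at least 18 bases. GC content ran from 40.9% in miR-186-5p to 65.2% in miR-423-3p.

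The genes lie apart, except for a pair of hairpins on chromosome 9. The miR-103-3p sequence is encoded at chr2:131288103-131288125 and at chr11:35782447-35782469, in introns of Pank2 and Pank3, and miR-107-3p at chr19:34820700-34820722 in an intron of Pank1. All 3 hosts encode pantothenate kinases, which begin coenzyme A synthesis. The miR-191-5p sequence (chr9:108568325-108568347) and the miR-425-5p sequence (chr9:108568789-108568811) are neighbours, both inside an exon of the lincRNA 4833445I07Rik. The arms of miR-423 (5p at chr11:77078122-77078144, 3p at chr11:77078086-77078108, minus strand) come from an intron of Nsrp1, a splicing regulator. The arms of miR-361 (5p at chrX:113074867-113074888, 3p at chrX:113074827-113074851, minus strand) come from an intron of Chm, a Rab escort protein, and miR-186-5p (chr3:157544285-157544306) from an intron of Zranb2.

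Total counts ran from 121003 (BDL 4) to 3506914 in the BDL libraries and from 659302 to 2684636 in the sham libraries. Levels are given as CPM, counts per 1000000 of the library size after TMM scaling, which corrects for a few very abundant names. Where a name has no count, a level of up to 3 counts remains possible, or 24 CPM in BDL 4 and 0.624 CPM in BDL 1; intervals and limits cover counting error only. Hepatocyte markers (miR-122-5p, miR-122-3p and miR-192-5p) took 7.14% to 33.9% of BDL counts and 0.413% to 2.49% of sham counts. Erythroid markers took 17.1% to 36.1% and 37.3% to 41.1%, platelet markers 0.0686% to 0.389% and 0.307% to 0.899%, and leukocyte markers 0.0502% to 0.303% and 0.279% to 0.661%. The platelet share was mostly miR-126a-3p, with 70839 counts in the table where the next name, miR-199a-3p, had 2899. miR-223-3p is in both the platelet and the leukocyte list. Both hepatocyte names tested rose, while 2 of 4 erythroid, 3 of 4 platelet and 3 of 5 leukocyte names tested fell and the others did not pass, where 24.6% of all 341 names tested rose and 18.2% fell. No marker was at 0 in all 12 libraries. Their part in the changes of the reference microRNAs was not tested.

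The levels of the 9 names ranged from almost nothing to about 1% of all counts. The arms of miR-423 were by far the most abundant, with a mean of 10199 CPM for miR-423-5p and 5872 CPM for miR-423-3p, ranks 8 and 17 of the 341 names that passed the filter on low counts. Next came miR-191-5p at 2573 CPM, then miR-425-5p at 333.7 CPM and miR-361-3p at 267.1 CPM. The lowest were miR-103-3p at 64.7, miR-186-5p at 60.4 and miR-361-5p at 36.3 CPM. These are levels of mature RNAs of 22 to 25 bases, so no length correction was made.

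One name could not serve as a reference here at all. miR-107-3p had 3 counts in the whole table, all in sham 2, and did not pass the filter, against 1518 counts for its paralogue miR-103-3p. How the authors' counting assigned reads that match several places is not given in the sources used here, so the split between these paralogues is uncertain. The other 8 names passed the filter, and every statement on tests below is about these 8.

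After bile duct ligation, the reference microRNAs that passed the test did not all change in the same direction. Both arms of the miR-423 hairpin rose, miR-186-5p fell, and the remaining 5 names did not pass the test. The call of miR-186-5p held in 4 of the 12 fits that left out 1 library. The log2 fold changes, BDL minus sham, spanned -1.16 to 1.12 with a median of 0.02, where the median of all names tested was 0.03. The test was edgeR's quasi-likelihood F test with Benjamini-Hochberg adjustment over all 341 names, and an adjusted p under 0.05 passed.

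Of the 8, 3 (37.5%) passed, where 42.8% of all names tested did. By direction, 25% of the references rose against 24.6% of all names, and 12.5% fell against 18.2%. These shares are close to the background, so as a set the references were called about as often as other vesicle microRNAs. The 95% confidence interval lay between a halving and a doubling (log2 of -1 to 1) for 2 of the 8, or 25%, and for 15.5% of all names tested.

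miR-423-3p showed the clearest difference. Its lowest, median and highest levels were 6934, 7667 and 9527 CPM in BDL and 3307, 3674 and 4244 CPM in sham. Every BDL library lay above every sham library, which held for 1 of the 8 references (12.5%) and, with BDL above or below, for 21.1% of all names tested (11.7% above, 9.38% below). Its log2 fold change was 1.12 ± 0.20 (SE, n = 6 each; edgeR adjusted p = 3.61e-04), a 2.17-fold rise with a 95% interval of 1.63-fold to 2.89-fold. The difference was present in libraries whose sample code ends in 24 (0.99, edgeR adjusted p = 0.0108) and in those ending in 26 (1.23, edgeR adjusted p = 0.00826), a code whose meaning is not given. Leaving out any 1 library kept the log2 fold change between 0.98 and 1.09. The call ended in 1 setting, with no filter on low counts (0.98, edgeR adjusted p = 0.0728).

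The other arm of the same hairpin, miR-423-5p, also rose. Its lowest, median and highest levels were 8989, 12324 and 15575 CPM in BDL and 5432, 7566 and 10428 CPM in sham. The groups overlapped only through BDL 1, which lay below sham 3 and sham 6. The rise was 0.73 on the log2 scale ± 0.24 (SE, n = 6 each; edgeR adjusted p = 0.0194), or 1.66-fold. The call ended without any 1 of 6 libraries: the edgeR adjusted p was 0.0602 without BDL 2, 0.103 without BDL 3, 0.0601 without sham 1, 0.0602 without sham 2, 0.0577 without sham 4 and 0.0802 without sham 5. It also ended with no filter on low counts (0.63, edgeR adjusted p = 0.29), with libraries that share a first digit summed (0.74, edgeR adjusted p = 0.0599), and within each code ending (0.71 and 0.75, edgeR adjusted p = 0.111 and 0.103).

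miR-186-5p fell, with a large spread among BDL libraries. Its lowest, median and highest levels were 8.99, 21.7 and 73.0 CPM in BDL and 67.0, 76.8 and 112.9 CPM in sham. BDL 1 and BDL 3, at 73.0 CPM each, lay within the sham range, and the other 4 BDL libraries lay below every sham library. The 3 lowest of these, BDL 2, 4 and 6, had counts of 5, 2 and 7. Their exact Poisson 95% intervals reached 21.0, 57.7 and 26.5 CPM, below the lowest sham value of 67.0 CPM. That value, a count of 44 in sham 6, had an interval of 48.7 to 90.0 CPM. The interval of BDL 4 overlapped it, and those of BDL 2 and BDL 6 did not. Over all libraries the log2 fold change was -1.16 ± 0.45 (SE, n = 6 each; edgeR adjusted p = 0.0447). The call ended with total counts in place of TMM (-0.91, edgeR adjusted p = 0.175), with libraries that share the first digit of their sample code summed (-0.70, edgeR adjusted p = 0.153), and with no filter on low counts (-1.11, edgeR adjusted p = 0.0826).

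That fall was uneven between the sample codes. In libraries ending in 24 the log2 fold change of miR-186-5p was -0.57 (edgeR adjusted p = 0.294), and in those ending in 26 it was -2.86 (edgeR adjusted p = 9.98e-04). The difference between them was -2.22 ± 0.67 (SE; edgeR interaction adjusted p = 0.0622), in a test that called 2.35% of all names. The 3 BDL libraries ending in 26 were also the 3 shallowest BDL libraries, and the part of depth was not tested. Leaving out BDL 2, 4, 5 or 6 ended the call (edgeR adjusted p = 0.0884, 0.0589, 0.0761 and 0.0978), as did leaving out sham 1, 2, 4 or 5 (edgeR adjusted p = 0.051, 0.0584, 0.0708 and 0.0799).

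**Figure D1:**
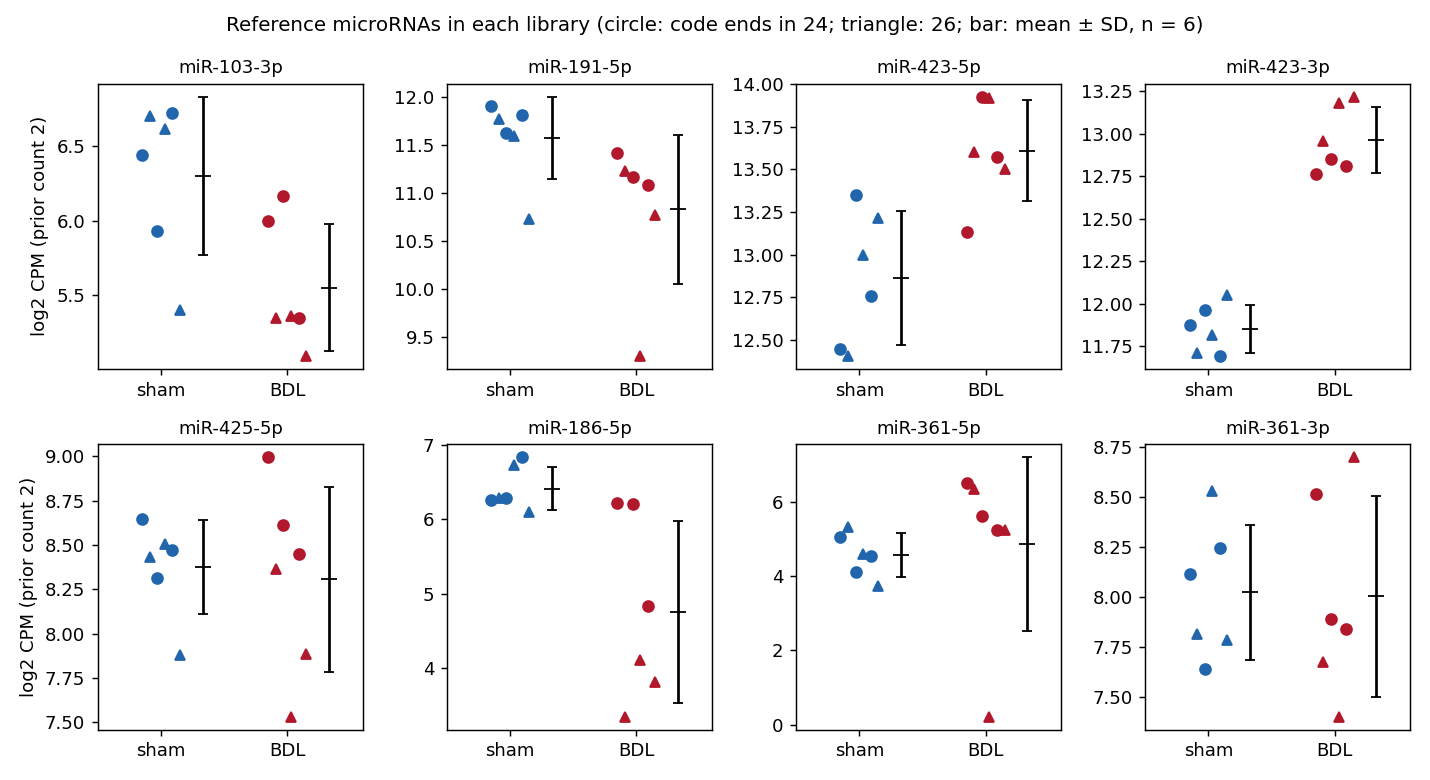
Level of each reference microRNA (log2 CPM with a prior count of 2, vertical axis, its own range per panel) in the 6 sham (blue) and 6 BDL (red) libraries; circles are sample codes ending in 24, triangles those ending in 26, and the bar is the group mean ± SD (n = 6). The groups separate fully for miR-423-3p, and BDL 4 is the low triangle at 0.21 for miR-361-5p and at 9.31 for miR-191-5p.

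The names with fold changes nearest 0 were miR-425-5p and miR-361-3p. miR-425-5p had lowest, median and highest levels of 183.8, 338.5 and 508.6 CPM in BDL and 234.7, 348.8 and 399.7 CPM in sham. Its means were 332.4 ± 115.0 and 335.0 ± 56.1 CPM (SD, n = 6 each), and the BDL libraries spread to both sides of the sham range. Its log2 fold change was 1.0e-04 ± 0.26 (SE; edgeR adjusted p = 0.9997), with a 95% interval of -0.55 to 0.55, or 0.682-fold to 1.47-fold. Group membership accounted for 0.813% of its variance in log2 CPM.

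For miR-361-3p the lowest, median and highest levels were 167.8, 231.7 and 414.8 CPM in BDL and 198.6, 250.2 and 369.5 CPM in sham. Its log2 fold change was 0.03 ± 0.28 (SE; edgeR adjusted p = 0.946), with a 95% interval of -0.56 to 0.62, or 0.679-fold to 1.54-fold. The groups overlapped almost fully for both names, and the intervals still hold changes of that size. The sign of both values depends on the scaling: with DESeq2's size factors, which lowered the median of all names from 0.03 to -0.11, they were -0.13 and -0.11, and with total counts only they were 0.14 and 0.15. It also depends on the library left out, with ranges of -0.22 to 0.10 and -0.20 to 0.05, and neither name passed in any setting.

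miR-103-3p, miR-191-5p and miR-361-5p had intervals that left out 0 but did not pass after adjustment. miR-103-3p had 33, 39.7 and 70.7 CPM (lowest, median, highest) in BDL and 41.1, 91.2 and 104.3 CPM in sham. Its log2 fold change was -0.75 ± 0.31 (SE; edgeR adjusted p = 0.0624; 95% interval -1.42 to -0.09). It passed without BDL 1, BDL 3, sham 3 or sham 6 (edgeR adjusted p = 0.0389, 0.0343, 0.0361 and 0.0179).

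miR-191-5p, abundant in blood cells, had 631.4, 2233 and 2733 CPM in BDL and 1694, 3329 and 3854 CPM in sham. One library of each group stood low, BDL 4 at 631.4 CPM (a count of 79) and sham 6 at 1694 CPM. The groups overlapped only through sham 6, a library singled out by its value, so this is a description and no support for a separation. In edgeR the log2 fold change was -0.65 ± 0.31 (SE; edgeR adjusted p = 0.0974; 95% interval -1.30 to -0.01), or -0.52 without BDL 4 (edgeR adjusted p = 0.0998) and -0.88 without sham 6 (edgeR adjusted p = 0.04).

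miR-361-5p had 0, 42.1 and 89.3 CPM in BDL and 12.2, 22.6 and 39.0 CPM in sham. BDL 4 had no count of it, which at that depth allows up to 24 CPM, so its level there cannot be set against the sham libraries. With all libraries the log2 fold change was 1.07 ± 0.46 (SE; edgeR adjusted p = 0.0673; 95% interval 0.11 to 2.03), and without BDL 4 it was 1.20 (edgeR adjusted p = 0.0157). That was the only 1 of 12 such fits in which it passed, and the values ran from 0.77 to 1.24. The change was 0.79 without BDL 1 and 0.77 without sham 3 (edgeR adjusted p = 0.193 and 0.223), with intervals that included 0.

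**Figure D2:**
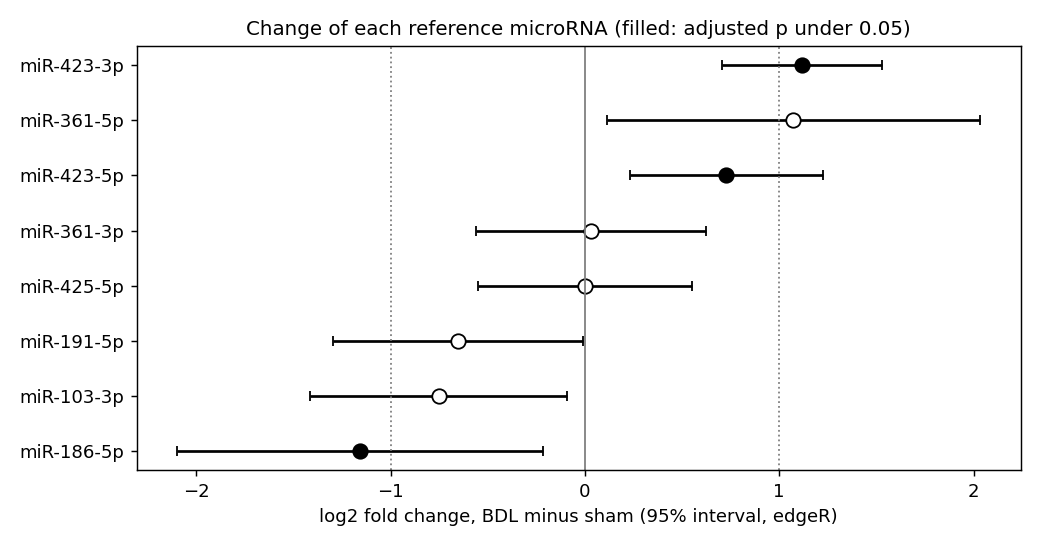
Log2 fold change (BDL minus sham, horizontal axis) of the 8 tested reference microRNAs with its 95% interval from edgeR; filled points have an adjusted p under 0.05 and dotted lines mark a doubling and a halving. miR-423-3p (1.12), miR-423-5p (0.73) and miR-186-5p (-1.16) are filled, and the intervals of miR-425-5p and miR-361-3p alone lie between the dotted lines.

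Spread was measured as the SD of log2 CPM, which is a description with no test. Over all 12 libraries the smallest SD among the references was 0.40 for miR-425-5p, rank 15 from the smallest of 341 names, followed by 0.41 for miR-361-3p at rank 18 and 0.51 for miR-423-5p at rank 37. miR-103-3p and miR-423-3p had 0.60 each (ranks 70 and 71), miR-191-5p had 0.71 (rank 112), miR-186-5p 1.22 (rank 252) and miR-361-5p 1.63 (rank 312). Of the 8, 6 were below the median of all names, 0.91, and the median of the 8 was 0.60. These ranks and that median take in names of every level that passed the filter, and the part of level in the spread was not tested. The value of miR-361-5p rests on its count of 0 in BDL 4 and was 0.85 without that library.

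miR-423-3p combined a small spread within groups with a large difference between them. It had an SD of 0.14 among sham libraries (rank 8 of 341) and 0.19 among BDL libraries (rank 3), the tightest of the 8 in both groups. Yet 92.8% of its variance over the 12 libraries lay between the groups, against 58.2% for miR-423-5p, 50.8% for miR-186-5p, 42.3% for miR-103-3p and 29.6% for miR-191-5p. For miR-361-3p and miR-361-5p it was 0.0644% and 0.892%. The value of miR-361-5p includes the count of 0 in BDL 4, at a log2 CPM of 0.21, where its other BDL libraries had at least 5.23. A small share here does not mean a small change, since its edgeR log2 fold change was 1.07, and 1.20 without BDL 4.

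The spread was larger after ligation in 6 of the 8 names. The median SD of the 8 was 0.51 in BDL and 0.36 in sham, and that of all names tested was 0.85 and 0.46. miR-186-5p went from 0.29 in sham to 1.23 in BDL and miR-425-5p from 0.26 to 0.52. The exceptions were miR-103-3p, with 0.53 in sham and 0.43 in BDL, and miR-423-5p, with 0.39 and 0.29. The BDL group held both the shallowest and the deepest library, and the part of depth in these values was not tested.

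**Figure D3:**
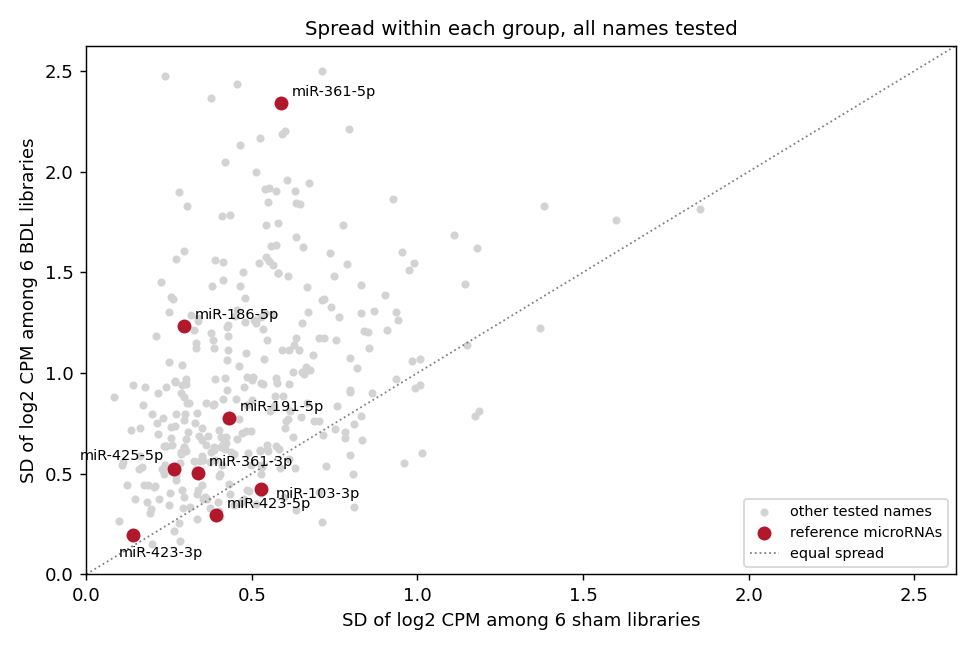
SD of log2 CPM among the 6 sham libraries (horizontal axis) and among the 6 BDL libraries (vertical axis) for all 341 names tested (grey) and the 8 reference microRNAs (red); the dotted line marks equal spread. Among the 8, miR-423-3p sits nearest the origin (0.14 and 0.19), and miR-186-5p (0.29 and 1.23) and miR-361-5p (0.59 and 2.34) sit far above the line.

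The steadiest names in the table were not among the references. Of 125 names with a mean of at least 100 CPM, the 5 with the smallest SD over 12 libraries were miR-1198-5p (0.19), let-7b-5p (0.25), miR-152-3p (0.29), miR-99b-5p (0.31) and let-7d-3p (0.33). They were picked by these values, so no test applies. A small SD did not mean that the groups overlapped: for let-7b-5p every BDL library lay below every sham library, and 53.0% of its variance lay between the groups (log2 fold change -0.35). miR-1198-5p had 1817 ± 330.8 CPM in BDL and 1730 ± 118.7 CPM in sham (SD, n = 6 each).

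Ratios between references need no library scaling, and 28 pairs can be formed from the 8 names. The SD of the log2 ratio over 12 libraries was smallest for the arms of miR-423 (0.34), then for miR-425-5p to miR-361-3p (0.44) and miR-191-5p to miR-425-5p (0.47), and largest for miR-186-5p to miR-361-5p (1.91). Averaged over its 7 partners, the SD was 0.77 for miR-425-5p, 0.85 for miR-361-3p, 0.88 for miR-191-5p, 0.89 for miR-103-3p, 1.06 for miR-423-5p, 1.11 for miR-423-3p, 1.32 for miR-186-5p and 1.6 for miR-361-5p. By this measure, which is the one used to rank reference genes in many assays, miR-425-5p was again the steadiest and the arms of miR-423 came after miR-103-3p and miR-191-5p. Without BDL 4 the value of miR-361-5p was 0.99 and that of miR-425-5p 0.63.

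For 3 pairs that share a hairpin or a locus, the log2 ratios of the groups were compared by an exact permutation test (two-sided), adjusted over the 3. miR-191-5p relative to its neighbour miR-425-5p was lower after ligation. The lowest, median and highest log2 ratios were 1.77, 2.60 and 2.89 in BDL and 2.85, 3.29 and 3.34 in sham, overlapping only through sham 6 and BDL 2 and 6. The means were 2.52 ± 0.41 and 3.20 ± 0.20 (SD over 6 libraries each), with a difference of -0.68 (exact permutation p = 0.00649, adjusted 0.0195). It was -0.77 in libraries ending in 24 and -0.58 in those ending in 26.

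The ratio of the arms of miR-423 did not pass. The log2 ratio of miR-423-5p to miR-423-3p was 0.65 ± 0.29 in the BDL libraries and 1.01 ± 0.31 in the sham libraries (SD over 6 each), with a difference of -0.36 ± 0.17 (SE; exact permutation p = 0.0758, adjusted 0.114). It passed without BDL 3 (-0.45, exact permutation adjusted p = 0.0455) and without sham 1 (-0.45, exact permutation adjusted p = 0.0357). For the arms of miR-361 the difference was 0.32 ± 0.89 (SE, n = 6 each; exact permutation p = 0.792, adjusted 0.792), and without BDL 4, where the 5p arm had no count, it was 1.12 (exact permutation adjusted p = 0.039). The difference was 1.13 in libraries ending in 24 and -0.50 in those ending in 26. In the latter the sign rested on BDL 4, since the difference was 1.10 without it, a value computed after the data were seen. Over both code endings, leaving out BDL 4 kept the sign, and leaving out BDL 2 gave -0.051.

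Most hairpins gave counts mainly from the arm that is used as a reference. The 5p arm took a median of 98.8% of miR-191 counts in BDL and 99.6% in sham, with ranges of 98.4% to 99.0% and 99.1% to 99.7%. The gap between these ranges was narrow, 99.04% against 99.10%, and rested on 480 counts of the 3p arm in the whole table. It was not tested, and the ranges of the other hairpins overlapped. For miR-425 the medians were 90.1% and 90.0%, and for miR-186 they were 100% in both, with 2 counts of the 3p arm in the table. The miR-423 hairpin was more even, with medians of 61.8% in BDL and 68.4% in sham. In miR-361 the 3p arm dominated, and the 5p arm took 15.3% in BDL and 7.15% in sham. Of the 6 other arms of these hairpins, 2 could be tested and neither passed: miR-191-3p had a log2 fold change of 0.70 ± 0.39 (SE; edgeR adjusted p = 0.162) and miR-425-3p of 0.15 ± 0.43 (edgeR adjusted p = 0.806). The 5p arms of both miR-103 hairpins and of miR-107 had no count in any library.

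To see what the choice of reference does, 4 target microRNAs were divided by each of the 8 references, and the log2 ratios were compared between the groups by exact permutation, adjusted over the 32 ratios. The targets were the liver microRNAs miR-122-5p and miR-192-5p, the red cell microRNA miR-451a, and miR-21a-5p, which is often raised in fibrotic tissue. In all, 28 of the 32 ratios passed, for targets that were chosen with earlier results known. Between the lowest and the highest reference, miR-423-3p and miR-186-5p, the result moved by 2.77 on the log2 scale, or 6.84-fold. This range is the same for any target by arithmetic, since the target cancels and the difference between those references remains.

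For the targets with large changes, the direction did not depend on the reference. The scaled edgeR log2 fold changes of miR-122-5p, miR-192-5p and miR-451a (4.26, 3.37 and -2.63) were larger in size than that of any reference. These targets were also chosen with earlier results known. The direction of these 24 ratios was thus largely set in advance, and their p-values are no independent support. miR-122-5p was higher against all 8, from 3.41 with miR-423-3p to 6.18 with miR-186-5p (exact permutation adjusted p from 0.0033 to 0.00799, n = 6 each). miR-192-5p was higher against all 8, from 2.17 to 4.94 (exact permutation adjusted p from 0.0033 to 0.00554, n = 6 each). miR-451a was lower against all 8, from -3.89 to -1.12 (exact permutation adjusted p from 0.0033 to 0.0205, n = 6 each). The ratio of miR-451a to miR-361-5p, at -3.07, was the 1 among these 24 that missed the threshold in another setting, with an exact permutation adjusted p of 0.0915 at a prior count of 0.5 and an exact sign-flip adjusted p of 0.0714 with libraries paired by number.

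For miR-21a-5p the reference set the answer. Its own scaled log2 fold change was 3.6e-04, so these ratios largely restate the changes of the references with the opposite sign. Their p-values are no independent support for those changes. Against miR-186-5p it was higher by 1.62 ± 0.38 (SE, n = 6 each; exact permutation adjusted p = 0.0033), and every BDL library lay above every sham library. Against miR-103-3p it was higher by 0.71 ± 0.16 and against miR-191-5p by 0.71 ± 0.21 (exact permutation adjusted p = 0.00554 for each). Against miR-423-3p it fell by 1.15 on the log2 scale ± 0.42 (exact permutation adjusted p = 0.0272). That call ended without BDL 4 or 6 (exact permutation adjusted p = 0.0525 and 0.0544) and without sham 1, 2, 4 or 5 (0.0519, 0.0544, 0.0519 and 0.0569).

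With the remaining references miR-21a-5p did not pass. The difference was -0.78 ± 0.46 against miR-423-5p, -0.33 ± 0.82 against miR-361-5p, -0.02 ± 0.36 against miR-361-3p and 0.03 ± 0.15 against miR-425-5p (SE, n = 6 each; exact permutation adjusted p = 0.131, 0.843, 0.965 and 0.856). Without BDL 4 the value against miR-361-5p was -1.11 (exact permutation adjusted p = 0.00533), and without sham 6 the value against miR-423-5p was -1.06 (exact permutation adjusted p = 0.0346). Against the mean of all 8 it was 0.10, close to its scaled log2 fold change of 3.6e-04 ± 0.30 in edgeR.

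The mean log2 CPM of the 8 references was 8.61 ± 0.55 for BDL and 8.75 ± 0.21 for sham (SD over 6 libraries each), with a difference of -0.14. BDL 4 was the lowest library, at 7.63, and in a calculation added after the data were seen the difference without it was 0.061, the opposite sign. Leaving out any other library kept it between -0.25 and -0.10. Its SD over 12 libraries was 0.40. Against this mean, miR-122-5p differed by 4.66, miR-192-5p by 3.41 and miR-451a by -2.64, each given without a test because the members of the mean were chosen with earlier results known.

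**Figure D4:**
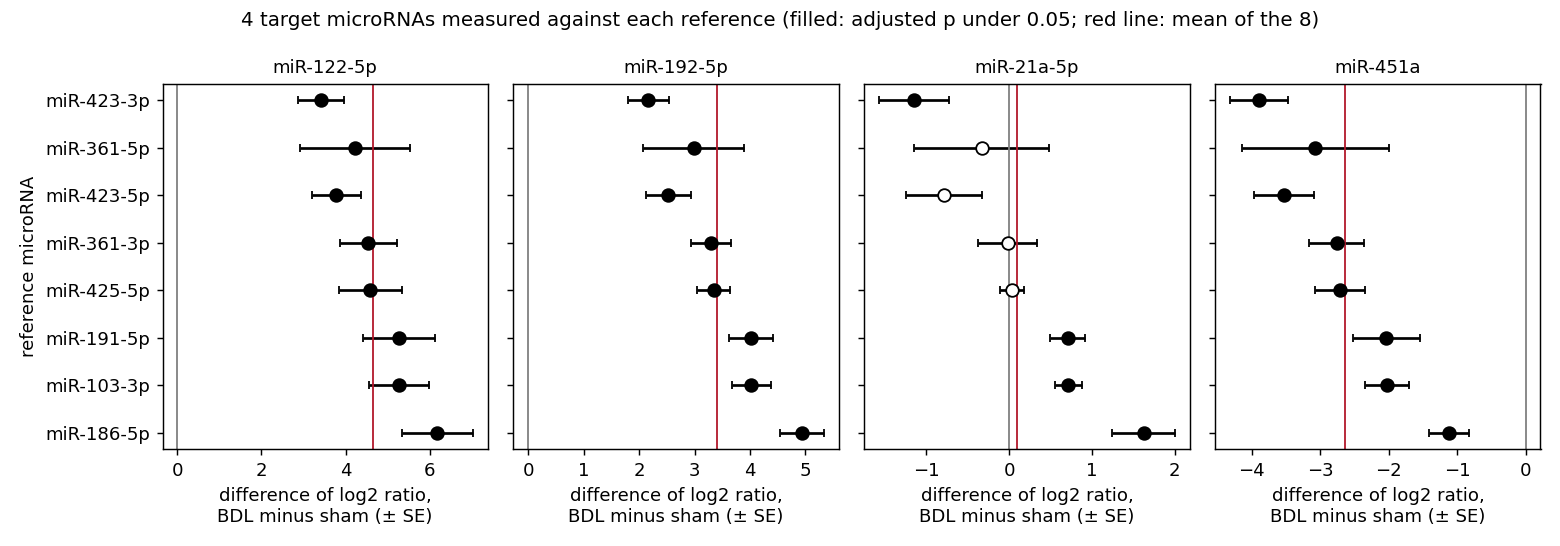
Difference of the log2 ratio of 4 targets to each reference microRNA (BDL minus sham, horizontal axis, ± SE, n = 6 each), with references ordered by their own fold change; filled points have an exact permutation adjusted p under 0.05, the grey line is 0 and the red line is the value against the mean of the 8. miR-21a-5p runs from -1.15 with miR-423-3p to 1.62 with miR-186-5p, on both sides of 0, while the other targets stay on 1 side.

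A further list of microRNAs used as plasma references gave a wider set of changes. Of its 16 names, all tested, 1 rose, 8 fell and 7 did not pass, where 24.6% of all names tested rose and 18.2% fell. Their median log2 fold change was -0.88, where that of all names was 0.03. The lowest adjusted p-values were those of miR-148b-3p, at -1.91 ± 0.33 (SE; edgeR adjusted p = 3.61e-04), and miR-26a-5p, at -1.83 ± 0.36 (edgeR adjusted p = 7.72e-04). The most abundant were let-7i-5p, which fell by 1.06 on the log2 scale ± 0.24 (edgeR adjusted p = 0.00247), and miR-24-3p, the 1 name that rose, at 1.06 ± 0.25 (edgeR adjusted p = 0.0029). Their SD over 12 libraries ran from 0.33 (let-7d-3p) to 1.73 (miR-223-3p) with a median of 0.94.

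miR-103-3p also belongs to the group named after miR-15 and miR-107, whose members share an overlapping 5′ stretch. Of its other members, 4 could be tested and 3 of these fell, where 18.2% of all names tested did. miR-16-5p, itself a widely used plasma reference and abundant in red cells, fell by 2.06 on the log2 scale ± 0.46 (SE; edgeR adjusted p = 0.00189). miR-503-5p and miR-15b-5p fell by 1.47 and 1.31 on the log2 scale (edgeR adjusted p = 0.011 and 0.0341), and miR-195a-5p had -1.12 ± 0.55 (edgeR adjusted p = 0.112).

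The names whose pattern over the 12 libraries was most like each reference were found by Pearson's r of log2 CPM, as a description over libraries that share depth and scaling. The closest to miR-186-5p and to miR-103-3p was the same name, miR-363-3p (r = 0.97 and 0.88), which fell by 1.75 on the log2 scale ± 0.55 (SE; edgeR adjusted p = 0.0164). miR-423-3p was most like miR-1943-5p (r = 0.95), which rose by 2.90 ± 0.43 (edgeR adjusted p = 8.39e-05), and miR-423-5p was most like miR-877-5p (r = 0.84), which rose by 1.48 ± 0.35 (edgeR adjusted p = 0.00274). miR-425-5p was most like miR-21a-5p (r = 0.92), miR-191-5p like miR-223-3p (r = 0.95), miR-361-5p like miR-425-3p (r = 0.94) and miR-361-3p like miR-330-5p (r = 0.74). Of these closest names, miR-363-3p and miR-877-5p were low, with means of 6.87 and 10.66 CPM, and the others had 34.5 to 3359 CPM. A count of 3 is 5.39 CPM in BDL 2, 5.51 CPM in BDL 6 and more in BDL 4. In these libraries miR-186-5p also had few counts, and the part of low counts in its r of 0.97 was not tested. These r values include BDL 4, where miR-361-5p had no count and miR-191-5p was low. The SDs among BDL libraries were 2.34 for miR-361-5p, 2.19 for miR-425-3p and 2.21 for miR-223-3p. The log2 fold changes of miR-361-5p and miR-425-3p were 1.07 and 0.15, and the part of BDL 4 in these r values was not tested. Among the 28 pairs of references themselves, r was below 0 in 12.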

How the data were processed

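Small RNA of vesicles precipitated from 250 µl of plasma was made into libraries from 40 ng of RNA with 15 PCR cycles, per the labels' protocols. The authors deposited whole-number read counts per microRNA name, made with cutadapt and STAR per the submitters' processing notes. The sources used here give no version, genome build or annotation. No molecular identifiers are described. Names of other species (67) were left out.

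The BDL and sham libraries were compared with edgeR 4.0.16 in R 4.3.3 (quasi-likelihood F test, TMM scaling, low-count filter by group; tested on simulated data). SEs of log2 fold changes were derived from F, and intervals from the t distribution. Log2 CPM has a prior count of 2. Single ratios had two-sided exact permutation tests, whose smallest p is 0.00216. A planned ratio of miR-103-3p to miR-107-3p was not computed, since miR-107-3p had 3 counts. Sequences come from RefSeq and host genes from GENCODE M21, both on GRCm38, which need not be the authors' build.

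The members, lists and targets were chosen with earlier results of these data known. Named microRNAs are the members, for each the 1 closest name, the 5 smallest SDs above 100 CPM, the targets, and in each list the 2 lowest adjusted p-values and 2 highest levels; the names of the miR-15 and miR-107 group and the other arms that could be tested are all given. Alternatives were DESeq2 1.42.0 and its size factors, total counts only, other filters, limma-voom (limma 3.58.1), the replicate block, code suffix, libraries sharing the first digit of the sample code summed, the paralogues summed, and leaving out each library.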

Additional observations from a re-analysis of the deposited data

Results flagged for a closer look

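In 4 of 22 groups of 6 values, 1 library lay far from the other 5 by Dixon's criterion, which flags about 1 in 20 independent groups by chance. The groups here share libraries and counts, so 4 of 22 cannot be read as an excess over that share. Log2 CPM of miR-191-5p was 9.31 in BDL 4 and 10.73 in sham 6, each the lowest of its group. Log2 CPM of miR-361-5p was 0.21 in BDL 4, which is a count of 0, and the log2 ratio of miR-361-5p to miR-361-3p was -7.19 in the same library. BDL 4 was the shallowest library, with 121003 counts, and sham 6 was the shallowest of its group, with 659302. The count of 79 for miR-191-5p in BDL 4 gave 499.9 to 786.9 CPM (exact Poisson 95% interval, counting error only), below every other library.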

How the results depend on the processing

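The 3 reference microRNAs past the threshold became 5 with DESeq2's size factors and 5 with DESeq2, where miR-103-3p and miR-191-5p passed too, and 1 to 5 when 1 library was left out (1 without BDL 2 or sham 1, 2, 4 or 5, and 5 without sham 6). With no count filter edgeR called 0 of 9 (6 had an unadjusted p under 0.05), and miR-423-3p had an adjusted p of 0.0728. In every other setting run miR-423-3p passed. Both arms of miR-423 stayed above 0 and miR-186-5p below 0 in all settings. With libraries that share a first digit summed, 2 passed, miR-423-3p (1.04, edgeR adjusted p = 0.00259) and miR-361-5p (1.19, edgeR adjusted p = 0.0307). All names past the threshold numbered 146, and 120 to 156 without 1 library.

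The labels do not say whether the sample numbers pair the libraries, and the correlations do not settle it. Same-numbered libraries correlated at -0.09 to 0.31, over 0.1 in 2 of 6, and 2 of 6 correlated best with their own number. With the replicate block 133 names and 3 references passed, and the ratio of miR-191-5p to miR-425-5p, at -0.68, had an adjusted p of 0.0938 in an exact sign-flip test whose smallest p is 0.0312.

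Without 1 library the log2 ratios ran from -0.45 to -0.29 for the arms of miR-423, from -0.051 to 1.12 for those of miR-361 and from -0.75 to -0.53 for miR-191-5p to miR-425-5p, and 27 to 29 target ratios passed. A split of 3 libraries against 3 cannot go below an exact p of 0.1, so ratios within a code suffix or averaged by first digit were not tested. Depth limits miR-186-5p, miR-103-3p and miR-361-5p, with 2, 5 and 0 counts in BDL 4.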
